A study of Homo sapiens with 6 samples.

Results

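The genes of cholesterol and fatty acid synthesis were examined after knockdown of PRKCN in MM.1S, a cell line from human multiple myeloma. PRKCN is the gene for protein kinase D3 and is listed as PRKD3. They are 33 genes picked by symbol for their place in these pathways: 7 enzymes of the mevalonate pathway, 11 enzymes from squalene to cholesterol, 5 genes of the SREBP control system, 7 fatty acid enzymes and 3 genes of sterol efflux and LXR response. All 33 were among the 21850 genes listed in the count table and among the 13971 that passed the filter on low counts. The names leave out some enzymes and receptors of the same pathways. Some of those are given further below, and the others are not analysed here.

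RNA was sequenced on day 3 from cells labelled wild type and infected with a scramble short hairpin RNA (shNT, 3 libraries), or infected with a hairpin against PRKCN and labelled PRKCN knockdown (shPRKCN, 3 libraries). Both groups are the same line and carried a lentiviral hairpin, in a vector that also encodes GFP. The labels do not say which PRKCN hairpin was used, so a change cannot be told apart from an effect of that hairpin alone. They also do not say that the 3 libraries of a group came from separate infections, so p-values measure the spread between these libraries, which may be technical.

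Cells make cholesterol from acetyl-CoA through mevalonate, farnesyl diphosphate, squalene and lanosterol, and make fatty acids from the same precursor. When sterols in the endoplasmic reticulum run low, SCAP carries the SREBP transcription factors to the Golgi, where they are cut and released to switch on these enzymes, and INSIG proteins hold SCAP back when sterols are plentiful. Oxysterols bind the LXR receptors, which switch on the exporters ABCA1 and ABCG1 and also SREBF1. Plasma cells, and the myeloma cells derived from them, hold an enlarged endoplasmic reticulum and secrete immunoglobulin.

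Library totals ran from 35625564 to 37730003 counts. PRKD3 fell to 41.0% of its control level, from 1272, 1298 and 1216 CPM (counts scaled to the size of each library) in shNT to 535, 491 and 527 CPM in shPRKCN (log2 fold change -1.29, SE 0.03, adjusted p = 8.2e-43). All 10 plasma cell markers on the list were detected, with JCHAIN between 5300 and 5517 CPM and SDC1 between 871 and 1052 CPM in every library, and their summed level was 9735 to 9851 CPM in shNT and 8353 to 8448 CPM in shPRKCN. Of the 10, 4 were called lower (IRF4, XBP1, TNFRSF17 and SLAMF7), beside 10.6% of all genes tested. By adjusted p under 0.05 alone, 7 of the 10 were lower and 1 was higher, beside 27.8% and 26.5% of all genes. Of the T cell list, CD3D and CD3G had at most 1 count in any library while CD3E rose, and the sum went from 10.7 to 12.01 CPM to 27.5 to 31.3 CPM. The B cell sum was 89.3 to 98.8 CPM and then 54.3 to 58.1 CPM, carried by BACH2 and CIITA, with MS4A1, PAX5 and CD22 under 1 CPM. The myeloid sum was under 0.70 CPM and the stromal and epithelial sum under 3 CPM in every library. The part of these marker changes in the results below was not tested.

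The lipid synthesis genes did not move as a block. Of the 33, 3 were called higher in shPRKCN (FASN, ABCA1 and ABCG1) and 4 were called lower (FADS1, FADS2, SREBF1 and STARD4). A call required a Benjamini-Hochberg adjusted p under 0.05 from edgeR's quasi-likelihood test and a log2 fold change beyond 0.58, a fold of 1.49. Of all genes tested, 6.15% were called higher and 10.6% lower, so the members' shares, 9.09% and 12.1%, lay near that background. In these bulk samples a lower level in every cell and fewer cells with the transcript cannot be told apart. By adjusted p alone 13 members rose (39.4%) and 11 fell (33.3%), beside 26.5% and 27.8% of all genes, and 9 did not pass. "Rose" and "fell" refer to this adjusted p, and "called" to both limits. All shPRKCN libraries lay above all shNT libraries for 15 members and below them for 10, against 29.0% and 29.8% of all genes. The median log2 fold change of the members was 0.05 (all genes, 0.00) and their median absolute log2 fold change was 0.25, the same as the 0.25 of all genes. The members took 0.193% of the counts in each shNT library and 0.199% to 0.200% in the shPRKCN libraries. Per gene length the order was the other way, with a summed level of 542.8 ± 5.87 FPKM (SD, n = 3) in shNT and 528.6 ± 0.961 FPKM in shPRKCN.

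**Figure D1:**
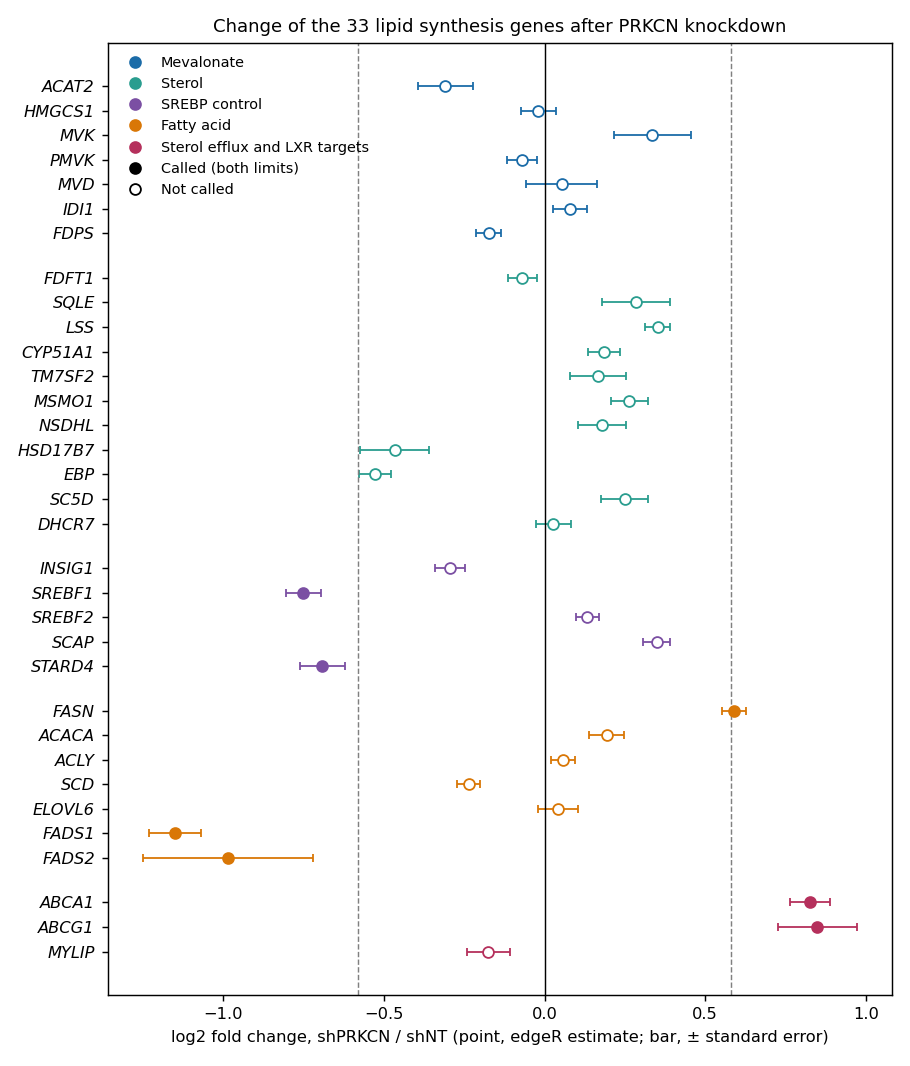
Log2 fold change (shPRKCN over shNT, x axis) of each of the 33 genes, in pathway order and coloured by branch, with bars of 1 standard error, filled points for called genes and dashed lines at the fold limit of 0.58. All 18 mevalonate and sterol enzymes lie inside the dashed lines, and the 7 filled points are in the other 3 branches.

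**Figure D2:**
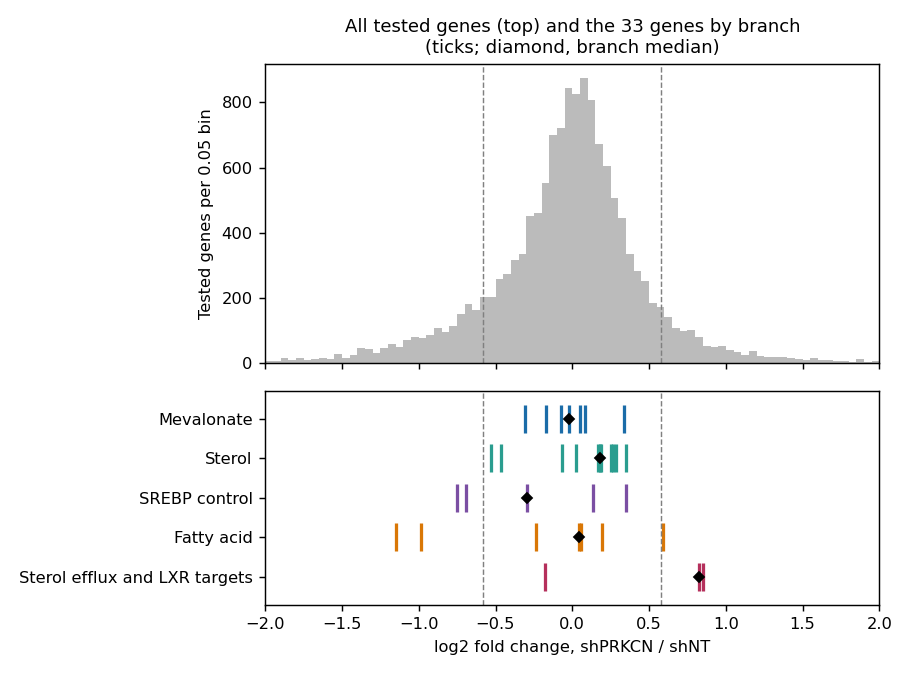
Number of tested genes by log2 fold change (top, bins of 0.05) above the members of each branch (bottom, ticks, with the branch median as a diamond); dashed lines mark the fold limit of 0.58 and 127 genes lie beyond the plotted range of 2 in either direction. The members spread over the same range as the bulk of all genes, from -1.15 for FADS1 to 0.85 for ABCG1.

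The mevalonate enzymes held close to their control levels, and none of the 7 was called. Their median log2 fold change was -0.02, with 1 rise, 2 falls and 4 genes that did not pass. FDPS, which makes farnesyl diphosphate, was the most abundant of all 33 genes per length in both groups (78.2 ± 3.08 FPKM in shNT and 70.2 ± 1.504 in shPRKCN). It fell slightly, from 136, 127 and 138 CPM to 118, 122 and 115 CPM (log2 fold change -0.17, SE 0.04, adjusted p = 0.000147), without overlap between the groups. ACAT2, the thiolase that joins acetyl-CoA units, fell from 15.2, 15.1 and 15.6 CPM to 12.8, 12.2 and 12.1 CPM (log2 fold change -0.31, adjusted p = 0.00167). All 3 shPRKCN libraries were lower for ACAT2 as well. MVK, mevalonate kinase, had 5.52, 6.47 and 7.61 CPM in shNT and 7.90, 8.61 and 8.27 CPM in shPRKCN. Its shNT libraries were the more scattered, and its rise (log2 fold change 0.34, SE 0.12, adjusted p = 0.0147) did not pass without shNT replicate 1 (0.23, adjusted p = 0.142) or without shPRKCN replicate 2 (0.31, adjusted p = 0.0537), with adjusted p from 0.00302 to 0.142 over the alternatives. HMGCS1, a synthase of the pathway, had 42.2, 38.5 and 39.5 CPM in shNT and 39.8, 37.8 and 40.9 CPM in shPRKCN. Its groups overlapped (adjusted p = 0.788). PMVK, MVD and IDI1, which phosphorylate and decarboxylate mevalonate and isomerise its product, had log2 fold changes of -0.07, 0.05 and 0.08 (adjusted p = 0.193, 0.712 and 0.202).

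The steps from squalene to cholesterol split. Of the 11 enzymes 6 rose, 2 fell and 3 did not pass. Their median log2 fold change was 0.18, and none was called. Those that rose were SQLE (squalene epoxidase), LSS (lanosterol synthase), CYP51A1 and MSMO1 (which act in removing methyl groups from lanosterol), NSDHL and SC5D (a desaturase). LSS moved with the least scatter, from 99.6, 105 and 104 CPM to 131, 132 and 132 CPM (log2 fold change 0.35, SE 0.04, adjusted p = 6.73e-12). MSMO1 went from 31.1, 34.8 and 31.9 CPM to 38.3, 38.5 and 40.6 CPM (log2 fold change 0.26, adjusted p = 6.08e-05). The groups did not overlap for any of the 6. CYP51A1 and SC5D rose by 0.18 and 0.25 on the log2 scale (adjusted p = 0.00131 and 0.00285).

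SQLE, at 8.30, 9.65 and 7.77 CPM in shNT and 10.4, 9.95 and 11.0 CPM in shPRKCN, rose by 0.29 on the log2 scale (SE 0.11, adjusted p = 0.0187). Its adjusted p was 0.0597, 0.112 and 0.0685 without shNT replicate 1, shNT replicate 3 or shPRKCN replicate 3, and from 0.0051 to 0.112 over the alternatives. NSDHL, at 18.1, 16.6 and 18.9 CPM and then 20.0, 20.7 and 20.0 CPM, was similarly close to the limit (log2 fold change 0.18, adjusted p = 0.0363). For NSDHL, the alternatives gave adjusted p-values between 0.0124 and 0.183. DESeq2 gave 0.0654, and of the 6 fits that left out a library NSDHL passed only without shNT replicate 3 or shPRKCN replicate 3.

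EBP, the isomerase that shifts the double bond of the sterol ring, and HSD17B7, a keto-reductase, were the sterol enzymes that fell. EBP, the most abundant sterol enzyme per length (57.1 ± 3.05 FPKM in shNT, 40.2 ± 1.13 FPKM in shPRKCN), fell from 61.4, 64.6 and 68.3 CPM to 45.3, 46.3 and 43.1 CPM (log2 fold change -0.53, SE 0.05, adjusted p = 1.22e-14). HSD17B7 fell from 10.8, 11.3 and 9.80 CPM to 7.39, 7.50 and 8.21 CPM (log2 fold change -0.47, SE 0.11, adjusted p = 0.000145). Neither reached the fold limit, and neither overlapped between groups. FDFT1, which commits farnesyl diphosphate to squalene, TM7SF2, a sterol reductase, and DHCR7, which reduces a late intermediate to cholesterol, had log2 fold changes of -0.07, 0.17 and 0.03 (adjusted p = 0.201, 0.1 and 0.71). Without shNT replicate 2, TM7SF2 passed (0.26, adjusted p = 0.0238, against up to 0.477 over the alternatives). Summed per length, the 18 mevalonate and sterol enzymes were at 329.1 ± 8.19 FPKM in shNT and 314.8 ± 0.890 FPKM in shPRKCN, without overlap, although more of them rose (7) than fell (4). The abundant EBP and FDPS were among those that fell.

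Several of these values are uncertain because the genes share sequence with others, and neither the strand setting of the counting nor its treatment of shared reads is given in the sources used here. In GENCODE release 29, 67.6% of the 50-base windows of the ACAT2 transcript also occur in other genes, chiefly SOD2-OT1, SOD2 and TCP1 on the opposite strand. For CYP51A1 the share was 88.9%, nearly all with a longer annotation on the same strand that spans it, and for HSD17B7 it was 51.1%, nearly all with the pseudogene HSD17B7P2. FDPS shared 30.0%, chiefly with the antisense RUSC1-AS1, and HMGCS1 shared 17.5% with an antisense gene. EBP, MVK, SQLE, NSDHL and SC5D shared none on this measure, and LSS shared 9.8%. Across all annotated exons, 306 bases of MVK (4.7%) lie opposite those of MMAB. Some SREBF1 exons, 556 bases, lie opposite those of RAI1, which itself rose by 0.22 on the log2 scale. Of the ACAT2 partners, SOD2 rose by 0.15 and TCP1 fell by 0.10 (adjusted p = 0.0189 and 0.0203). MMAB and RUSC1-AS1 did not pass (adjusted p = 0.166 and 0.394). HSD17B7P2 was not listed in the count table. SOD2-OT1, the annotation that spans CYP51A1 and the antisense gene of HMGCS1 were not examined.

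**Figure D3:**
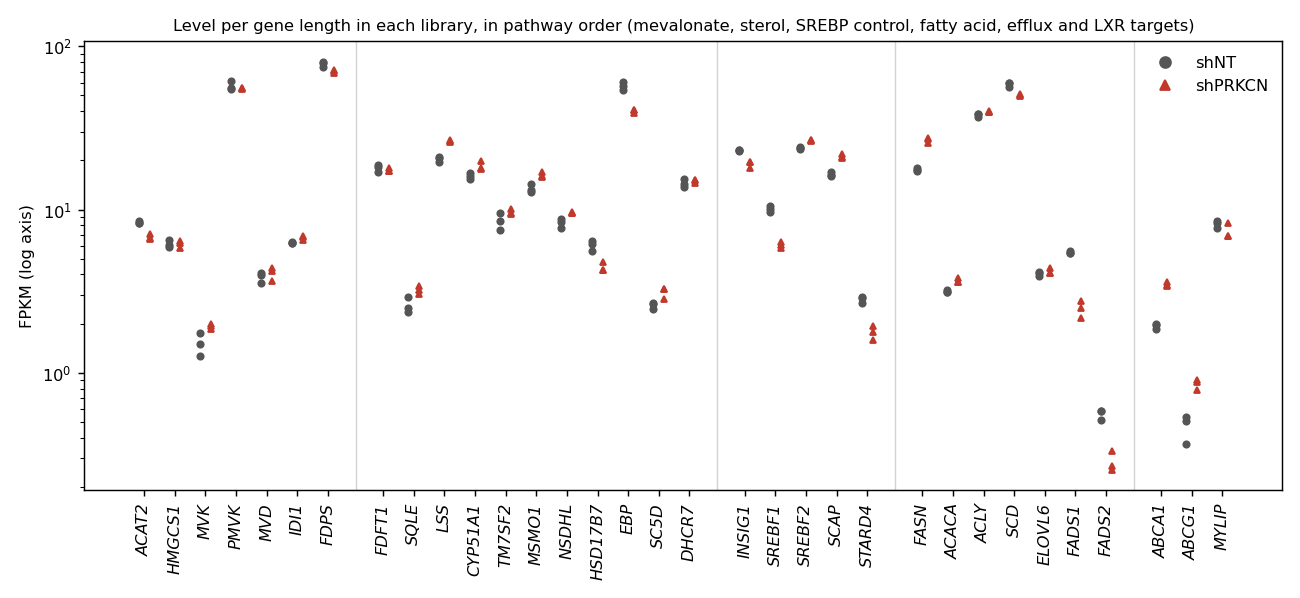
FPKM (reads scaled by gene length and library total, log axis) of each gene in each library, grey circles for shNT and red triangles for shPRKCN, in pathway order with vertical lines between branches. By these values FDPS, SCD, PMVK and EBP were the most abundant genes and ABCG1 and FADS2 the least. The length behind the ABCG1 value is far longer than its longest coding transcript. EBP, SREBF1, STARD4, FADS1 and FADS2 show triangles well below circles, and FASN, ABCA1 and ABCG1 the reverse.

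The control genes diverged. All 5 passed, 2 rising and 3 falling, with a median log2 fold change of -0.29. SREBF1 (chr17:17811334-17836986), which encodes the SREBP factor tied mainly to fatty acid genes, fell from 51.2, 53.7 and 55.9 CPM to 30.4, 33.5 and 31.7 CPM (log2 fold change -0.75, SE 0.05, adjusted p = 9.67e-20). Its groups stood well apart. SREBF2, which encodes the SREBP factor tied mainly to cholesterol genes, rose slightly, from 173, 175 and 178 CPM to 192, 195 and 190 CPM (log2 fold change 0.13, SE 0.04, adjusted p = 0.00127). The ratio of SREBF2 to SREBF1 per length therefore went from 2.45, 2.36 and 2.30 to 4.57, 4.21 and 4.33. By level per length SREBF1 dropped from place 15 to place 21 among the 33 genes, while SREBF2 was in place 6 and then 7. The table holds 1 value per gene, so the SREBF1 isoforms and the cut, active proteins were not measured.

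SCAP, the escort of the SREBPs, rose from 77.1, 81.8 and 78.4 CPM to 104, 101 and 98.0 CPM (log2 fold change 0.35, SE 0.04, adjusted p = 1.07e-10). INSIG1, which retains SCAP and is itself an SREBP target, fell from 71.9, 70.8 and 71.6 CPM to 54.7, 60.8 and 59.3 CPM (log2 fold change -0.29, SE 0.05, adjusted p = 1.99e-07). The ratio of INSIG1 to SCAP per length went from 1.41 ± 0.05 in shNT to 0.90 ± 0.07 in shPRKCN, without overlap. In CPM, which is not scaled by length, INSIG1 was below SCAP in all 6 libraries. STARD4 (chr5:111496033-111512535), a soluble carrier of cholesterol between membranes, fell from 27.3, 29.7 and 29.5 CPM to 19.4, 16.3 and 17.9 CPM (log2 fold change -0.69, SE 0.07, adjusted p = 1.04e-13). On log2(FPKM + 1), which compresses low values, the difference for STARD4 was -0.46 and no longer reached the fold limit.

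To see what the promoters of these genes share, 300-base windows around RefSeq transcription starts (GRCh38.p14, 250 bases before and 50 after) were searched on both strands. The table held 37 windows for 28 of the 33 members. ACAT2, FDFT1, SQLE, FASN and ABCG1 had no entry. The string TCACNCCAC, a form of the sterol regulatory element, was in 1.12% of all 34943 windows and, among members, only in that of SREBF2. Its shorter core CACNCCAC, which every match of the longer motif also contains, was in 5.86% of all windows and 21.6% of member windows. The member windows with the core belong to 7 members (ABCA1, ACACA, IDI1, INSIG1, SC5D, SCD and SREBF2). Of these 7, 4 rose, 2 fell and 1 did not pass. CCAAT, the motif of the factor NF-Y, was in 34.6% of all windows and 67.6% of member windows, and GGGCGG, the GC box, in 44.9% and 89.2%. The set of all windows was not limited to expressed genes, whereas every member passed the count filter. Windows of a member can also overlap, so a site can count more than once. Whether the higher shares are a trait of lipid genes was therefore not tested. Of the 21 members with CCAAT, 7 rose, 8 fell and 6 did not pass, so the motif occurred with either direction. A match describes letters and is not evidence of binding. Sites with other letters or outside the windows were not searched, so a member without a match may still hold an element.

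The windows of 3 genes are shown because they belong to 1 pathway, carry CCAAT and went different ways. SREBF2 (chr22:41832855-41833154, plus strand) and NSDHL (chrX:152830813-152831112, plus strand) rose, and STARD4 (chr5:111512486-111512785, minus strand) was called lower. Capitals mark CCAAT or its reverse complement ATTGG and, in SREBF2, the sterol element, whose first base is at -133 from the start.
SREBF2: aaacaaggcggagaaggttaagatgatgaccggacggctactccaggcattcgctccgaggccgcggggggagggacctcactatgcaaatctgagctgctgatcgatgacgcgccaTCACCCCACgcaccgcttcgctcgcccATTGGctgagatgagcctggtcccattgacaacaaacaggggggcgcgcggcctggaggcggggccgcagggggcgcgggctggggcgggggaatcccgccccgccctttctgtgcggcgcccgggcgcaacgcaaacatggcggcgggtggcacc
NSDHL: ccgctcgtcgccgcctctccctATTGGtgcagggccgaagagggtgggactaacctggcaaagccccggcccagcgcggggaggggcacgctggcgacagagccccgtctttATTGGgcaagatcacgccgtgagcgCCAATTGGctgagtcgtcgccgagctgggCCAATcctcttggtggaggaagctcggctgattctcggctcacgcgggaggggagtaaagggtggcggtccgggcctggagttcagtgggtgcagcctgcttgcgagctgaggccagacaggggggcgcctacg
STARD4: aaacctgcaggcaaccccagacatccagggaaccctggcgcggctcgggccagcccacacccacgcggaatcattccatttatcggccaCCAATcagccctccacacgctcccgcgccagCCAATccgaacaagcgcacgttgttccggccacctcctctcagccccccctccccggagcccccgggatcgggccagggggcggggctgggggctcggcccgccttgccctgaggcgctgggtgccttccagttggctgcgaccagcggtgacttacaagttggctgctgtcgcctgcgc
SREBF2 has 1 CCAAT match, at -106, STARD4 has a pair at -161 and -130, and NSDHL has 5 between -228 and -84, a pair of which overlap.

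The fatty acid branch held the largest fall of the 33 genes and a called rise. Of its 7 enzymes 2 rose, 3 fell and 2 did not pass, with a median log2 fold change of 0.04. FASN (chr17:82078338-82098236), fatty acid synthase, which builds palmitate, rose from 148, 150 and 155 CPM to 217, 235 and 229 CPM (log2 fold change 0.59, SE 0.04, adjusted p = 1.59e-22). Its groups were far apart, but the size of the rise lay on the fold limit. At 0.5757 without shNT replicate 1 and 0.5663 without shPRKCN replicate 2, the call was lost. Its direction was the same in all 15 alternatives, with a log2 fold change from 0.57 to 0.62.

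The desaturases FADS1 and FADS2 went the other way. FADS1 (chr11:61799627-61817003), which desaturates polyunsaturated fatty acids at the delta-5 position, fell most of all members, from 25.4, 24.6 and 24.6 CPM to 12.4, 11.4 and 9.74 CPM (log2 fold change -1.15, SE 0.08, adjusted p = 2.24e-20). FADS2 (chr11:61816203-61867354), the delta-6 desaturase, fell from 74, 77 and 69 counts to 44, 34 and 36 counts (log2 fold change -0.99, SE 0.26, adjusted p = 0.00108). Each group's libraries stood clear of the other's for both genes, and they stood at 45.0% and 50.5% of their control levels. FADS2 was the lowest of the members per length in shPRKCN, at 0.28 ± 0.04 FPKM, and its difference on log2(FPKM + 1) was -0.28, short of the fold limit. The genes are neighbours on opposite strands and share 490 exonic bases in GENCODE release 29, but only 2.3% of the windows of FADS1 and 2.8% of those of FADS2 occur elsewhere. The ratio of FADS1 to FADS2 per length was 9.79 ± 0.67 in shNT and 8.77 ± 0.96 in shPRKCN, with overlapping groups.

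SCD, stearoyl-CoA desaturase, which introduces the first double bond, was the second most abundant member per length in shNT. It fell from 315, 313 and 298 CPM to 260, 263 and 264 CPM (log2 fold change -0.24, SE 0.03, adjusted p = 1.67e-08). ACACA, acetyl-CoA carboxylase, which supplies malonyl-CoA to FASN, rose from 37.3, 36.0 and 36.0 CPM to 43.3, 41.3 and 40.3 CPM (log2 fold change 0.19, adjusted p = 0.0018). Both moved without overlap and by far less than the fold limit. ACLY, which makes cytosolic acetyl-CoA, and ELOVL6, which lengthens palmitate, did not pass (log2 fold changes 0.06 and 0.04, adjusted p = 0.191 and 0.591).

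FASN also moved relative to the desaturases. FASN over SCD per length went from 0.30 ± 0.02 to 0.53 ± 0.02, and FASN over FADS1 from 3.23 ± 0.13 to 10.9 ± 1.61, both without overlap. The summed level of the branch was 127.0 ± 2.61 FPKM in shNT and 127.5 ± 0.577 FPKM in shPRKCN, with overlapping groups, so opposite movements left the total within its spread.

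**Figure D4:**
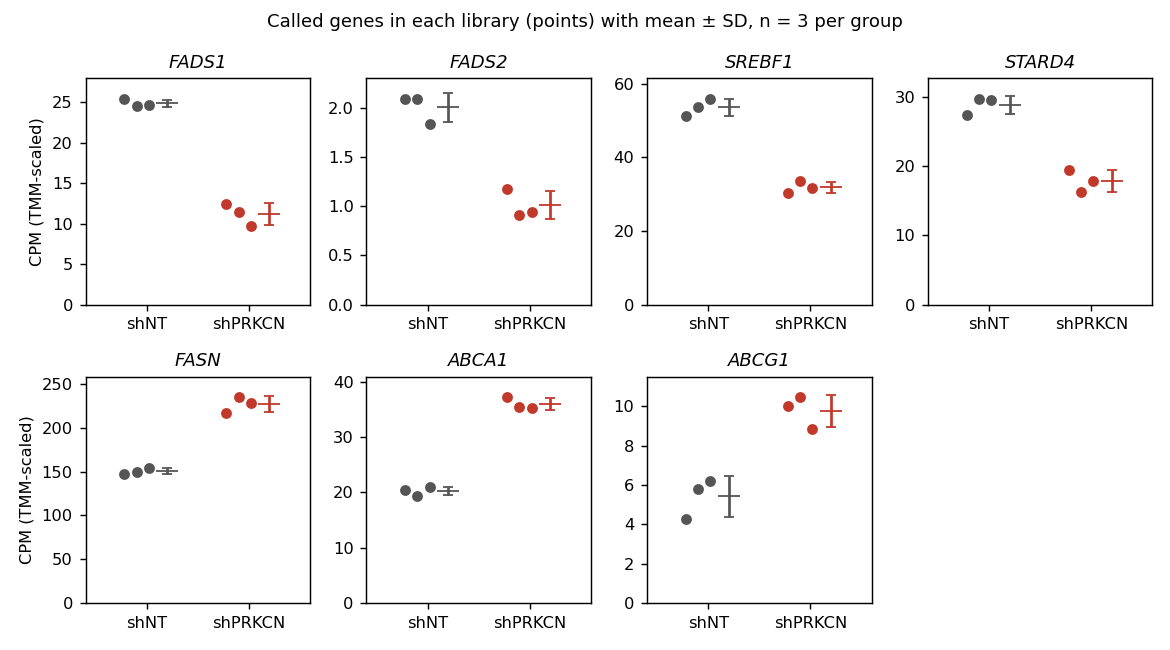
CPM of the 7 called genes in each library (points; y axes start at 0 and differ between genes), with mean ± SD of the 3 libraries per group in grey for shNT and red for shPRKCN. In every panel the groups are separate, FADS1, FADS2, SREBF1 and STARD4 with shPRKCN below and FASN, ABCA1 and ABCG1 with shPRKCN above.

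The sterol exporters rose together. ABCA1 (chr9:104781006-104928155), which loads cholesterol onto lipid-poor apolipoproteins, rose from 20.5, 19.4 and 20.9 CPM to 37.2, 35.55 and 35.2 CPM (log2 fold change 0.83, SE 0.06, adjusted p = 6.46e-19). ABCG1 (chr21:42199689-42297244), which exports cholesterol to lipoprotein particles, rose from 4.25, 5.82 and 6.20 CPM to 10.01, 10.5 and 8.87 CPM (log2 fold change 0.85, SE 0.12, adjusted p = 1.51e-08). shNT replicate 1 was the lowest for ABCG1, and without it the log2 fold change was 0.70. ABCA1 exceeded ABCG1 4.25 ± 0.94 times per length in shNT and 4.08 ± 0.31 times in shPRKCN, with overlapping groups. Both had low FPKM after knockdown, 3.48 ± 0.12 and 0.86 ± 0.07, and on log2(FPKM + 1) the difference of ABCG1 was 0.34, short of the fold limit.

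MYLIP, an E3 ubiquitin ligase that LXR also switches on, did not follow. It had 27.6, 26.7 and 25.0 CPM in shNT and 26.2, 22.1 and 21.9 CPM in shPRKCN, with overlapping groups, and its small fall (log2 fold change -0.18, SE 0.07, adjusted p = 0.0246) missed the limit in 8 of the 15 alternatives. These were DESeq2 (adjusted p = 0.0835), library size only (0.0575), log2(FPKM + 1) (0.123), log2(FPKM + 0.1) (0.111) and 4 of the 6 fits that left out a library, those without shNT replicate 1 or 2 or shPRKCN replicate 2 or 3 (adjusted p from 0.00242 to 0.179 over the alternatives). ABCA1 over MYLIP per length went from 0.24 ± 0.02 to 0.48 ± 0.03. SREBF1, a further LXR target, fell as given above.

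The promoter of ABCA1 is shown because it was the only member window with an LXR-type direct repeat, searched as GGTNA and GGTCA on 1 strand with 5 bases between. That pattern was chosen with the ABCA1 element in mind, so its match there was fixed in advance, and was found in 0.238% of all windows. ABCG1 had no window to search, and sites outside the windows of the other members were not searched. Capitals in this minus-strand window, chr9:104928106-104928405, mark the repeat at -69, here read on the other strand, and the core of the sterol element at -228.
ABCA1: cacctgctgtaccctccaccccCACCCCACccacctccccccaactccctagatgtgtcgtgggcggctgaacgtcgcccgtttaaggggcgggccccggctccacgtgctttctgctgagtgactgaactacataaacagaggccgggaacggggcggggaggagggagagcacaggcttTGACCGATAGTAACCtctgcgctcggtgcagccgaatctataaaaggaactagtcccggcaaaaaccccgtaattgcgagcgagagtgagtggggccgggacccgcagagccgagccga

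The 2 receptors were not members and are named here after their values were seen, out of the list of sterol transport and storage genes below. NR1H2 (LXR-beta) rose from 57.6, 55.0 and 53.3 CPM to 73.7, 77.1 and 74.0 CPM (log2 fold change 0.44, adjusted p = 1.09e-12). NR1H3 (LXR-alpha) stayed between 2.72 and 3.87 CPM (adjusted p = 0.566). Neither was called, and the part of the receptors in the changes above was not tested.

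Neighbouring lipid pathways were taken as lists. Among 13 regulators of the SREBPs none was called higher and 2 were called lower, with 3 rises and 6 falls. The called genes were the strongest changes of these lists: INSIG2, the second retainer of SCAP, fell from 63.4, 67.3 and 61.1 CPM to 24.3, 23.7 and 24.3 CPM (log2 fold change -1.41, SE 0.05, adjusted p = 8.54e-34). PAQR3, which tethers SCAP to the Golgi, fell from 18.5, 17.1 and 18.5 CPM to 7.34, 6.35 and 6.71 CPM (log2 fold change -1.40, SE 0.10, adjusted p = 5.98e-21). Both INSIG genes were thus lower while SCAP was higher.

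Of 20 tested genes of fatty acid elongation and activation, 2 were called higher and 3 lower, with 5 rises and 11 falls. FADS3, the third gene of the desaturase cluster, fell from 4.50, 4.49 and 5.42 CPM to 1.58, 2.34 and 2.00 CPM (log2 fold change -1.28, SE 0.18, adjusted p = 6.24e-09), and SCD5, a further stearoyl-CoA desaturase, fell by 0.66 on the log2 scale. ACACB, the carboxylase whose product restrains fatty acid oxidation, fell by 0.77, in the opposite direction to its paralog ACACA. ACSS2, which makes acetyl-CoA from acetate, and ACSL5, an acyl-CoA synthetase, rose by 0.67 and 0.61 on the log2 scale.

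Of 15 genes of the isoprenoid branch and related sterol steps, 1 was called higher and 2 lower, with 5 rises and 3 falls. DOLK, which makes dolichyl phosphate for glycosylation, rose by 0.60 and lost its call in 4 alternatives. PGGT1B, a subunit of a geranylgeranyl transferase, and LBR, which also acts as a sterol reductase, fell by 0.65 and 0.63. Of 15 glycerolipid and droplet genes, 2 were called lower (LPIN3 by 0.92 and PLIN3 by 0.78), with 6 rises and 5 falls. LPIN3 was under 2.1 CPM in every library, and its adjusted p was 0.0561 without shPRKCN replicate 3 and down to 0.00161 over the alternatives. Of 23 tested genes of sterol transport and storage, 1 was called higher, with 9 rises and 3 falls: NCEH1, a cholesteryl ester hydrolase, went from 8.47, 11.2 and 9.37 CPM to 20.7, 25.4 and 22.2 CPM (log2 fold change 1.23, SE 0.09, adjusted p = 9.23e-20). Of 16 tested genes of fatty acid oxidation none was called, with 8 rises and 2 falls. The rises and falls of these lists stand beside 26.5% and 27.8% of all genes. Their called counts stand beside 6.15% of all genes called higher and 10.6% called lower. On log2(FPKM + 1), DOLK, PGGT1B, ACACB, SCD5 and LPIN3 missed the fold limit.

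**Figure D5:**
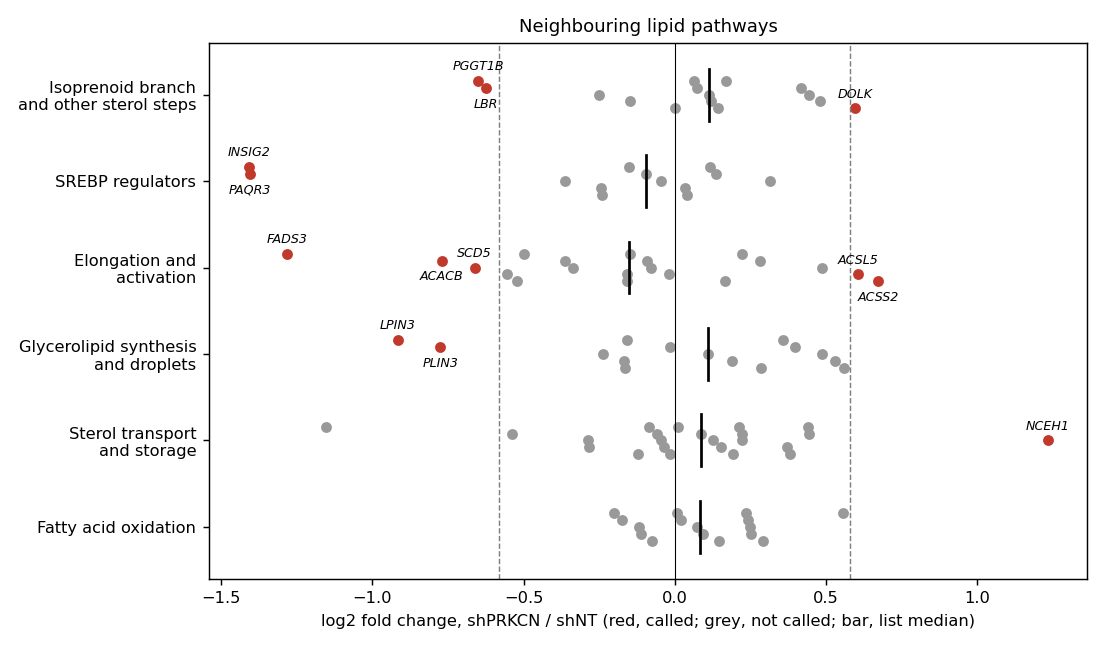
Log2 fold change (x axis) of the tested genes of 6 neighbouring lists, red where called and grey where not, with the list median as a black bar and the fold limit of 0.58 dashed; vertical offsets within a list carry no value. The list medians lie between -0.15 and 0.11, and INSIG2, PAQR3, FADS3 and NCEH1 are the called genes farthest from 0.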

How the data were processed

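RNA of 6 MM.1S libraries was analysed. The authors deposited raw counts per gene, and FPKM values, which rest on the same counts, library totals and a single length per gene. For some members that length was well above the longest coding transcript, such as ABCG1 (11489 against 3475 bases), STARD4 (10140 against 4606) and SC5D (7081 against 2456). Comparisons per length between genes depend on it. The submitters' processing notes name FastQC, HISAT2 and StringTie and the build GRCh38.p14, while the strandedness and annotation are not given in the sources used here. Groups came from the labels. Counts were scaled by TMM, filtered with filterByExpr and tested with edgeR 4.0.16 (quasi-likelihood, limma 3.58.1, R 4.3.3) over all 13971 genes, with Benjamini-Hochberg adjustment. SEs are the log2 fold change over the square root of F. The study's own limits (adjusted p 0.05, log2 fold change 0.58) were kept, and DESeq2 1.42.0, which the study used, was an alternative. The steps were tested on simulated data, where edgeR recovered 195 of 200 genes changed by 1 log2 unit and called 4 unchanged genes. The changed genes were drawn above a floor of counts, with the spread estimated from these libraries. Recovery of smaller changes or of genes with low counts was not measured. The members and lists were chosen with earlier results of these data known. All members, PRKD3 and, from each neighbouring list, up to 3 called genes per direction by size of change were named. The LXR receptors NR1H2 and NR1H3 were named besides, after their values were seen. Transcript windows came from GENCODE release 29 and promoters from RefSeq (GRCh38.p14), by symbol, with Python 3.11.15. Gene coordinates are those of RefSeq on GRCh38. No library repeated another (chi-square per degree of freedom 3.38 to 4.80 within and 63.8 to 70.2 between groups).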

Additional observations from a re-analysis of the deposited data

How the results depend on the processing

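The same 7 members were called under RLE, upper-quartile and library-size scaling, DESeq2, no filter, a minimum of 10 counts, log2(FPKM + 0.1) and the replicate number as a block (3 higher and 4 lower). Deviations of same-numbered libraries correlated at -0.059, -0.02 and -0.016, and those of differently numbered libraries at -0.049 to 0.07, which gave no sign of pairing. Whether same-numbered libraries shared a preparation is not settled by this. Without a fold limit 13 members were higher and 11 lower. Against 0.58 as the null (glmTreat) 2 were higher (ABCA1 and ABCG1) and 2 lower (FADS1 and SREBF1), and on log2(FPKM + 1), which compresses low genes by construction, 2 were higher (ABCA1 and FASN) and 2 lower (the same pair), with an efflux median of 0.34. Leaving out 1 library gave 2 to 3 members higher, 2 where FASN missed the limit (without shNT replicate 1 or shPRKCN replicate 2), 4 lower, and an efflux median from 0.70 to 0.85, the lowest without shNT replicate 1. HMGCS1, MVD and DHCR7 changed sign around 0: HMGCS1 was 0.0003 on library size alone, and over left-out libraries HMGCS1 ran from -0.0419 to 0.0189, MVD from -0.0057 to 0.12 and DHCR7 from -0.0055 to 0.0747. For these changes the cause was not tested beyond the construction named. Of 24 members under the adjusted p limit, 20 stayed under it in all 15 fits, and MVK, SQLE, NSDHL and MYLIP did not. In all, 485 of the members' values kept direction and call, 5 lost the call and 5 changed sign. Scaling moved the median of all genes by at most 0.02. Over all genes, glmTreat called 339 higher and 821 lower, log2(FPKM + 1) 317 and 651, and no fold limit 3700 and 3877, against 859 and 1475. Depth limits FADS2 most, with 34 to 77 counts per library. Intervals cover the spread between libraries only.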
